A study of Saccharomyces cerevisiae with 72 samples.

Results

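The AAD genes of Saccharomyces cerevisiae encode a family of putative aryl-alcohol dehydrogenases, proteins of the aldo-keto reductase superfamily that resemble an aryl-alcohol dehydrogenase of a wood-rotting fungus. The family was taken as the rows named AAD3, AAD4, AAD6, AAD10, AAD14 and AAD15, picked by gene symbol. The choice was made with earlier results of these data known. All 6 had 1 probe each in both deposited tables, out of 5594 genes in the first and 5592 in the second. The name AAD16, which is not among these 6, had no row of its own in either table.

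Aldo-keto reductases use NADPH to reduce aldehydes and ketones to alcohols, and many are made in larger amounts when cells meet oxidants or reactive carbonyls. In yeast, AAD4 and AAD6 are known from earlier work as the members induced by thiol-oxidizing agents through the transcription factor Yap1, while no clear substrate or loss-of-function phenotype has been assigned to the family. Most members lie near chromosome ends, where repeated gene blocks are common.

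Each array carried RNA of 1 strain treated with methyl methanesulfonate (MMS, an alkylating agent that damages DNA) in 1 dye and RNA of the same strain left untreated in the other dye. Cultures of the BY4741 background were grown at 30 °C, divided, and kept for 1 h with or without MMS. The 52 arrays of the kinase set used poly(A)-enriched RNA and covered wild type and 12 deletion strains. These were sml1, mec1, tel1, rad53, chk1, dun1, crt1 and ste11 with 1 gene deleted, and tel1mec1, chk1rad53, dun1rad53 and chk1dun1 with a pair of genes deleted. The 20 arrays of the factor set used total RNA of 5 strains that each lack 1 transcription factor gene (hap1, hap4, sut1, rcs1 or yap7), with no wild type beside them. The growth text gives 0.03% MMS for both sets, while the treatment text of the kinase set gives 0.033%. The labels name no other mutation in any strain. Whether the mec1, rad53, tel1mec1, chk1rad53 and dun1rad53 strains also lacked SML1, as such strains often do, is not given in the sources used here. If they did, sml1 rather than wild type would be the matched strain, and no contrast of them with sml1 was run.

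Mec1 and Tel1 are the kinases that sense DNA lesions and stalled replication. Rad53 and Chk1 are the effector kinases below them, and Dun1 acts below Rad53. Sml1 inhibits ribonucleotide reductase, Crt1 represses its genes, and Ste11 belongs to the mating pathway. Hap1 and Hap4 regulate heme-dependent and respiratory genes, Sut1 acts in sterol uptake, RCS1 is the older name of the iron regulator AFT1, and Yap7 is a relative of Yap1.

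Responses are given as the log2 ratio of MMS to untreated RNA, so that 1 unit is a 2-fold difference, and a value above 0 means more transcript after MMS relative to the other genes on the array. Each strain had 4 arrays, made up of 2 replicates with 2 arrays of opposite dye each, and the 2 arrays of a replicate were averaged, which gives n = 2 per strain. Nothing in the labels says that the replicates were separate cultures, so a p-value here covers only the spread between these samples, which may be technical. Tests are limma fits over all genes of a table, and a gene is called where its Benjamini-Hochberg adjusted p is under 0.05. The tables hold no spot intensities, so whether a probe was above background, and how far a probe of 1 member also bound the transcript of another, were not tested.

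Some kinase-set arrays stood apart. The median correlation of an array with the other 3 of its strain over all genes ran from 0.479 to 0.89, and the lowest value belonged to wild-type replicate 1 with MMS in Cy3. The next lowest, 0.557, belonged to chk1rad53 replicate 1 with MMS in Cy3, where the SD over genes was 0.197 against 0.365 to 0.413 on the other 3 arrays of that strain. In replicate 2 of dun1, on the array that carried MMS in Cy5, the deleted gene DUN1 read 2.71 against -0.24 to -0.11 on the other 3, and MEC1 read -2.34 against -0.75 to 0.30 on the other 51 arrays. The library labelled dun1 replicate 2 is therefore given below with and without that array.

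The members sit on 6 chromosomes. AAD3 (YCR107W) is on chromosome III with 1 annotated gene between it and the nearer end, and AAD15 (YOL165C) is on chromosome XV with 1 gene beyond it. AAD4 (YDL243C) on chromosome IV and AAD10 (YJR155W) on chromosome X each have 5 genes beyond them, and AAD14 (YNL331C) on chromosome XIV has 6. AAD6 (YFL056C) on chromosome VI has 10 genes beyond it, and the reference (assembly R64) annotates it as a pseudogene, since its reading frame is interrupted in the reference strain. Gene order and names come from that assembly, and no coordinates are given because no array build was named.

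In wild type, AAD6 and AAD4 rose clearly after MMS and the other 4 members changed little or not detectably. AAD6 read 1.81 and 1.07 on the arrays of replicate 1 and 1.78 and 1.30 on those of replicate 2. Its mean was 1.49 ± 0.08 (SD, n = 2), a 2.81-fold rise with an adjusted p of 5.6e-08 by limma, which placed it 68th of 5594 genes. AAD4 read 0.49 and 0.96, then 1.30 and 1.03, with a mean of 0.94 ± 0.31, a 1.93-fold rise with an adjusted p of 5.8e-06. No array of either gene was below 0.

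AAD3 and AAD14 were called with small values. AAD3 averaged 0.39 ± 0.23 (adjusted p 0.008, limma), with 3 arrays between 0.52 and 0.59 and the fourth at -0.13. AAD14 averaged 0.28 ± 0.20 (adjusted p 0.0069), with 3 arrays between 0.37 and 0.47 and the fourth at -0.10. Neither call held on each replicate alone: without wild-type replicate 1 AAD3 stood at 0.23 (adjusted p 0.26), and without replicate 2 AAD14 stood at 0.13 (adjusted p 0.34).

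AAD10 averaged 0.19 ± 0.17 and AAD15 0.16 ± 0.16, and neither was called (adjusted p 0.12 and 0.15). The AAD10 arrays of replicate 1 disagreed, with 0.55 and -0.42, where the low value came from the array that correlated least with its strain. Without that array AAD10 averaged 0.43 in wild type and was called (adjusted p 0.0012). In all, 4 of 6 members were called higher in wild type, beside 26.8% of all genes.

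Across the other kinase-set strains, the number of members called higher ran from 2 to 6. All 6 were called higher in tel1 and in crt1, beside 25.7% and 26.7% of all genes. The count was 5 of 6 in sml1 (27.0% of all genes) and in ste11 (28.0%). It was 4 of 6 in rad53 (19.1%), chk1 (26.2%) and chk1dun1 (21.1%). It was 3 of 6 in tel1mec1 (17.4%), dun1 (21.8%) and chk1rad53 (11.2%), and 2 of 6 in mec1 (23.6%). In dun1rad53, 4 of 6 were called higher, beside 19.0% of all genes, and 1 was called lower, beside 15.3%.

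These counts rested in part on single replicates. Without replicate 2 the count fell from 6 to 3 in crt1, where AAD3, AAD14 and AAD15 lost their calls, and from 5 to 2 in ste11, where AAD3, AAD10 and AAD15 lost theirs. It fell from 5 to 3 in sml1 without either replicate and in ste11 without replicate 1, and from 4 to 2 without replicate 1 in rad53, dun1rad53 and chk1dun1. In dun1, tel1mec1 and chk1rad53 the count was 1 or 2 with a replicate left out. The mec1 count stayed at 2, AAD6 and AAD4, with either replicate left out. Leaving out 3 single arrays, among them the mec1 array with the large spread over genes, added calls in mec1. These were AAD3 (0.37, adjusted p 0.016, limma) and AAD10 (0.3, adjusted p 0.029). Scaling all arrays to 1 spread added AAD3 (0.24, adjusted p 0.04) and AAD14 (0.19, adjusted p 0.049) there. Without the dun1 array that went against its label, AAD15 was called in dun1 (0.24, adjusted p 0.037, limma), which makes 4 of 6 there.

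The member median lay between 0.19 in mec1 and 0.50 in tel1, while the median of all genes lay within 0.01 of 0 in each strain. The spread among members differed more than their median. The highest member stood 3.54 above the lowest in dun1rad53, 1.33 above it in wild type and 0.68 above it in chk1dun1.

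**Figure D1:**
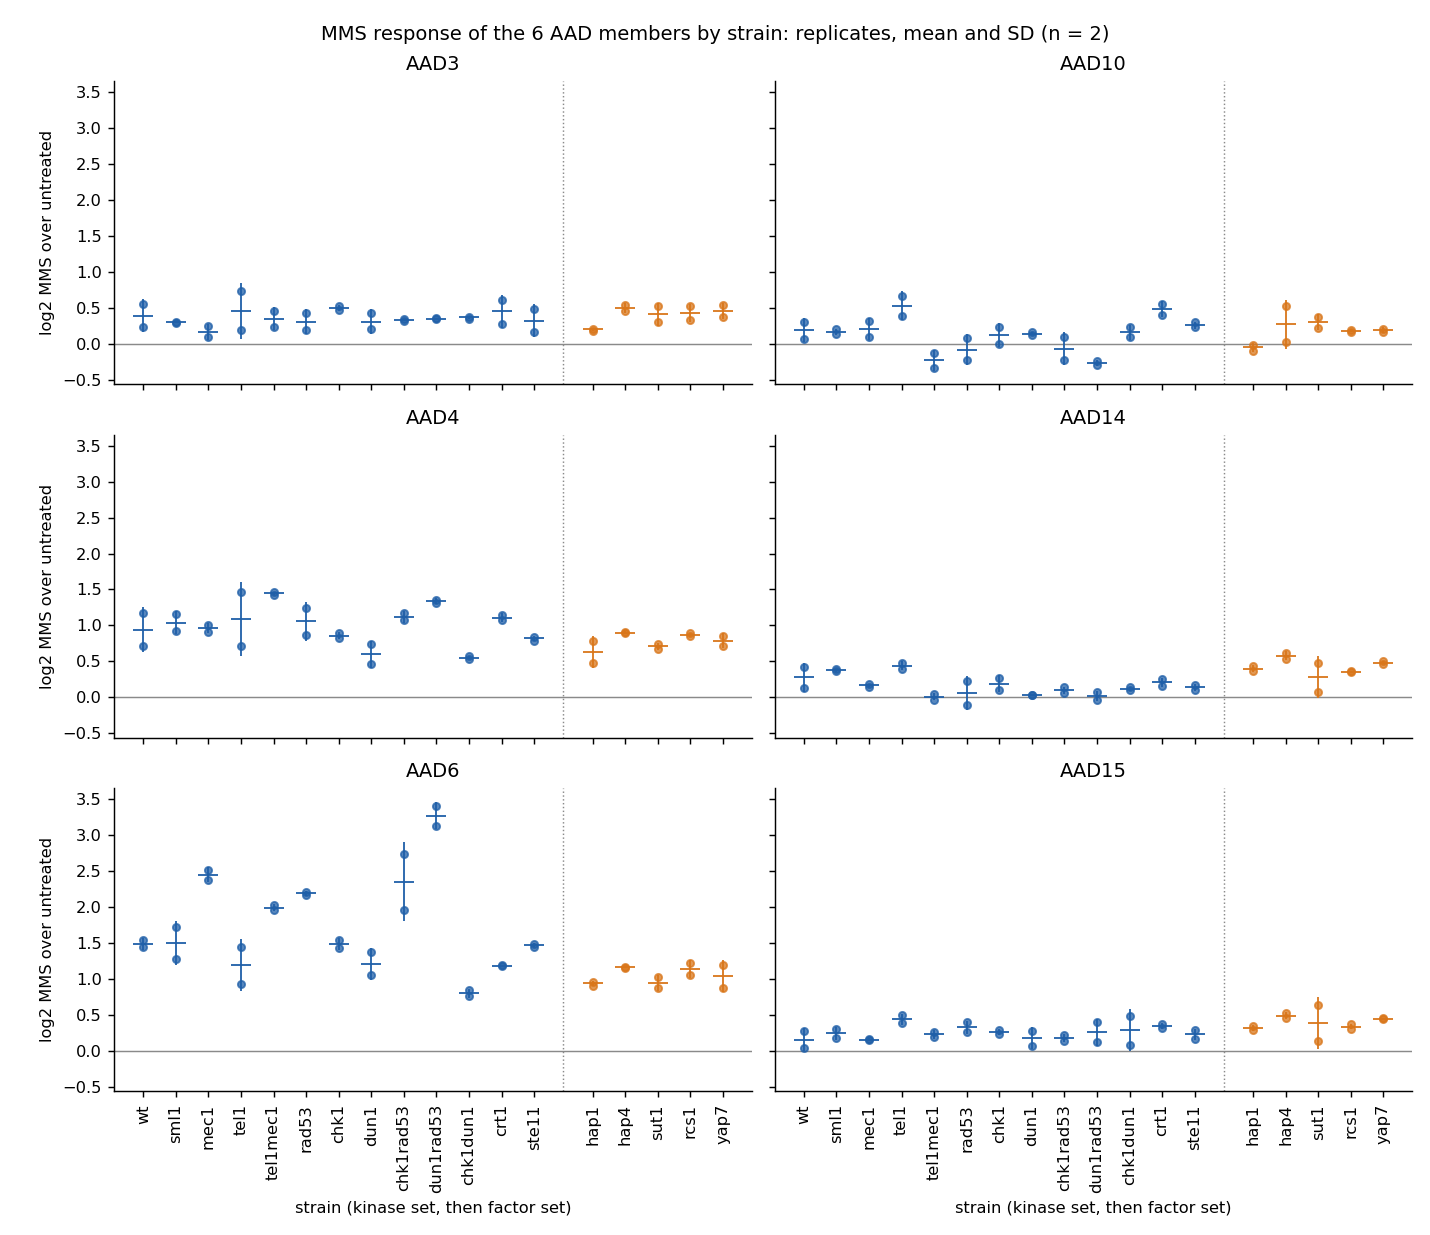
Response of each of the 6 members as log2 MMS over untreated (vertical axis) in the 13 kinase-set strains (blue) and the 5 factor-set strains (orange). Points are the 2 replicates of a strain, horizontal marks their mean and vertical bars the SD; AAD6 runs from 0.80 in chk1dun1 to 3.27 in dun1rad53, while the replicates of AAD3, AAD10, AAD14 and AAD15 lie between -0.33 and 0.74.

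AAD6 and AAD4 were called higher in all 13 kinase-set strains, and all 52 arrays read above 0 for each gene. In the AAD6 order, dun1rad53 came first with 3.27 ± 0.19, a 9.62-fold rise. Its 4 arrays read 3.0, 3.26, 3.16 and 3.64, and only 2 of 5594 genes rose more in that strain. The lowest of these arrays lay above every AAD6 array of the other 12 strains, whose highest value was 2.88.

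Next in the AAD6 order stood mec1 (2.45 ± 0.10), chk1rad53 (2.35 ± 0.55), rad53 (2.19 ± 0.03) and tel1mec1 (1.99 ± 0.05). The replicate ranges of mec1 and chk1rad53 overlapped, as did those of chk1rad53 and rad53. A middle group held sml1 (1.5 ± 0.31), wild type, chk1 (1.49 ± 0.08) and ste11 (1.47 ± 0.03), whose neighbours in the order all overlapped. Below them came dun1 (1.21 ± 0.22), tel1 (1.19 ± 0.36) and crt1 (1.18), of which dun1 overlapped with tel1 and tel1 with crt1, and last chk1dun1 (0.80 ± 0.06). The replicate ranges of ste11 and dun1 did not overlap, nor did those of crt1 and chk1dun1.

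The AAD4 order was narrower. It ran from tel1mec1 (1.45 ± 0.02) and dun1rad53 (1.34 ± 0.04) down to dun1 (0.60 ± 0.19) and chk1dun1 (0.55 ± 0.02). The 9 strains between, from chk1rad53 (1.12 ± 0.08) to ste11 (0.82 ± 0.04), formed a run in which each pair of neighbours overlapped, and ste11 did not overlap with dun1 below it. Without replicate 2 of dun1, the AAD4 response in dun1 was 0.47 and was not called (adjusted p 0.069, limma).

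Single arrays with opposite dyes did not always match. The 2 arrays of chk1rad53 replicate 1 read 2.88 and 1.05 for AAD6 and 1.70 and 0.44 for AAD4, the lower value of each on the array with the small spread over genes. In ste11 replicate 2, AAD6 read 2.13 and 0.77 while AAD4 read 0.11 and 1.58, so that the gap ran in opposite directions for the 2 genes. The array of dun1 replicate 2 whose deleted gene went against its label read 2.05 for AAD6, against 0.68 to 1.25 on the other 3 arrays of dun1. Without that array the dun1 responses were 0.87 for AAD6 (adjusted p 7.6e-05, limma) and 0.47 for AAD4 (adjusted p 0.005).

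**Figure D2:**
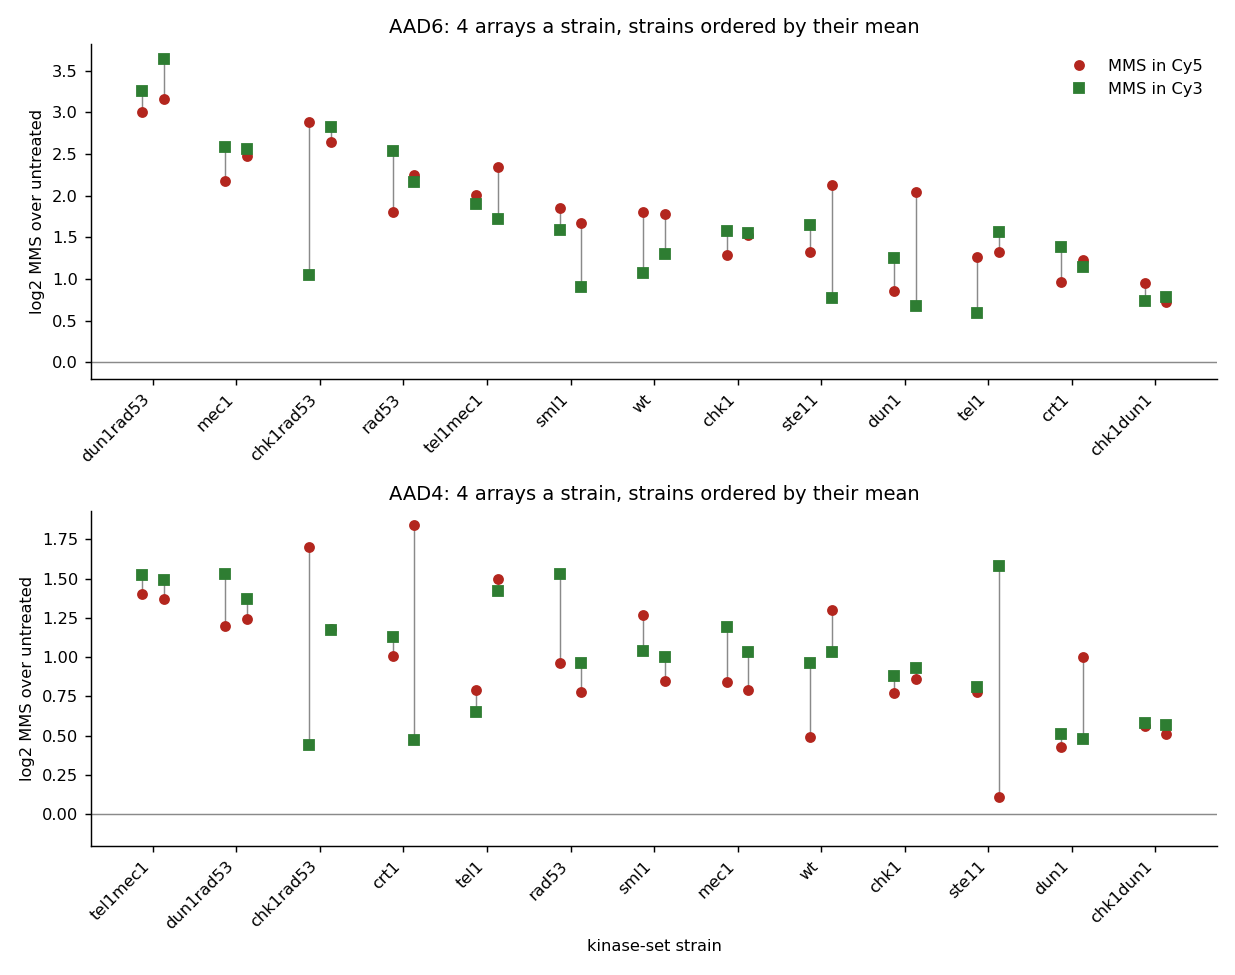
AAD6 (top) and AAD4 (bottom) on single arrays of the kinase set, as log2 MMS over untreated, with strains ordered by their mean. Circles are arrays with MMS in Cy5, squares arrays with MMS in Cy3, and a line joins the 2 arrays of a replicate; the 4 dun1rad53 arrays of AAD6 lie between 3.0 and 3.64, above all others.

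The other members responded weakly, and the strains in which each was called differed. A call in 1 strain and none in another does not show that the 2 strains differ. AAD15 averaged 0.23 in ste11, where it was called (adjusted p 0.041, limma), and 0.23 in tel1mec1, where it was not (0.063). AAD3 was called higher in 12 of 13 kinase-set strains, with means from 0.17 in mec1, where it was not called, to 0.50 ± 0.04 in chk1. It was called in 8 strains with strain and number as a random block, in 7 with the slide as a random block, and in 1 where either replicate of the strain could be left out. AAD15 was called higher in 8 strains, with means from 0.16 to 0.44, and in 1 where either replicate could be left out. Without the dun1 array that went against its label, AAD15 was called in 9. AAD14 was called higher in 4, namely wild type, sml1, tel1 and crt1, with means from 0.01 in tel1mec1 to 0.44 ± 0.06 in tel1, and 2 of these 4 calls held without either replicate.

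AAD10 was the member whose direction varied. It rose in tel1 (0.53 ± 0.20), crt1 (0.48 ± 0.11) and ste11 (0.26 ± 0.05). The ste11 call was lost without either ste11 replicate (adjusted p 0.12 and 0.23, limma), with both random blocks (0.054 and 0.067) and with scaled arrays (0.14). In crt1 AAD10 averaged 0.87 on arrays with MMS in Cy5 and 0.09 on those with MMS in Cy3. In dun1rad53 it fell by 0.27 on the log2 scale (adjusted p 0.04, limma), with all 4 arrays below 0, between -0.41 and -0.07. That call was lost without either dun1rad53 replicate (adjusted p 0.18 and 0.29) and with both random blocks (0.063 and 0.069). In tel1mec1 all 4 arrays also read below 0, with a mean of -0.23 ± 0.14 that was not called (adjusted p 0.081).

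AAD3 leaned on the dye. Its array with MMS in Cy3 read higher than its partner in 20 of 26 kinase-set replicates and in 10 of 10 factor-set replicates, with median gaps of 0.26 and 0.45. These gaps were larger than those of 92.9% and 95.7% of genes. For AAD15 the count was 18 of 26 and 8 of 10, with median gaps of 0.18 and 0.22, and for AAD6 it was 13 of 26 and 9 of 10. Each replicate mean holds both dyes, so a constant gap cancels in it. On arrays with MMS in Cy5 alone, where it does not cancel, AAD3 was called higher in 0 of 13 kinase-set strains by limma, with 2 at an unadjusted p under 0.05. On arrays with MMS in Cy3 alone it was called in 5.

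Over the 13 strain means, the 6 members did not move as a block. The Pearson correlation was 0.74 between AAD10 and AAD14, 0.64 between AAD4 and AAD6, and -0.71 between AAD6 and AAD10, and the other 12 pairs lay between -0.44 and 0.57. These values are descriptions over 13 strain means, with both genes of a pair read on the same arrays, and no p is given.

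Against wild type, 5 of 72 member differences were called, and 16 of 72 had an unadjusted p under 0.05. Of the called differences, 4 were higher and belonged to AAD6, and 1 was AAD10 in dun1rad53, which was lower. The share of all genes called in either direction was 21.1% in rad53, 16.1% in dun1rad53, 14% in chk1rad53, 12.9% in tel1mec1 and 1.56% in mec1. It was 0.59% in dun1, 0.518% in chk1dun1, 0.268% in crt1 and 0.0179% in chk1, and it was 0.0% in each of sml1, tel1 and ste11 by limma. Before adjustment, p was under 0.05 for 138, 283 and 113 genes in these 3 strains. All these differences share the wild-type arrays.

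AAD6 rose more than in wild type in dun1rad53, by 1.77 (SE 0.20, adjusted p 6.1e-06, limma), a 3.42-fold difference. The replicates read 3.13 and 3.40 there and 1.44 and 1.54 in wild type. This difference was called under all 38 alternative settings, with values from 1.29 to 2.86. Of these settings, 26 each left out 1 replicate, mostly of a strain outside the contrast, which leaves the difference itself unchanged. No slide carried both strains, and with the slide as a random block it was 1.8 (adjusted p 4.6e-07).

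In mec1 the AAD6 difference from wild type was 0.96 (SE 0.20, adjusted p 0.011), with replicates of 2.38 and 2.52. It was called among 1.56% of genes, the smallest share of the 4 strains concerned. The call was lost without either mec1 replicate (adjusted p 0.055 and 0.12) and without either wild-type replicate (0.082 and 0.06), while the difference stayed between 0.89 and 1.03. With the slide as a random block it was 0.96 (adjusted p 0.031).

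In rad53 the AAD6 difference was 0.70 (SE 0.20, adjusted p 0.016), with replicates of 2.17 and 2.21. It was lost without either rad53 replicate (adjusted p 0.052 and 0.088), without either wild-type replicate (0.068 and 0.055) and with the slide as a random block (0.68, adjusted p 0.051). Without the wild-type array that correlated least with its strain it was 0.51 (adjusted p 0.055).

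In chk1rad53 the AAD6 difference was 0.86 (SE 0.20, adjusted p 0.0063). Its replicates were far apart, at 1.96 and 2.74, and without replicate 2 the difference was 0.47 (adjusted p 0.12), while without replicate 1 it was 1.25 (adjusted p 0.00061). With the slide as a random block it was 0.87 (adjusted p 0.0066). Leaving out 3 single arrays together gave 1.32 (adjusted p 1.1e-05, limma). They were the chk1rad53 array with the small spread, the mec1 array with the large spread and the dun1 array that went against its label.

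The wild-type and deletion arrays of these 4 strains lay on different slides, so slide and strain cannot be told apart within a slide for them. Restricted to arrays with MMS in Cy5, the AAD6 differences were 0.54 in mec1, 0.23 in rad53, 0.97 in chk1rad53 and 1.29 in dun1rad53. Restricted to MMS in Cy3 they were 1.39, 1.17, 0.75 and 2.26. Of these 4, the dun1rad53 difference was called on each dye alone and the other 3 on neither. With all arrays scaled to 1 spread the AAD6 differences were 1.67, 1.32, 2.11 and 2.86 in the same order, all called.

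AAD6 was not called as different from wild type in the other 8 strains, and some of these differences were not small. In tel1mec1 it stood 0.50 above wild type (95% interval 0.09 to 0.91, adjusted p 0.10), and in chk1dun1 0.69 on the log2 scale below it (-0.69, interval -1.10 to -0.28, adjusted p 0.16). Scaling all arrays to 1 spread brought the tel1mec1 difference to 1.35 (adjusted p 0.0017). Without the wild-type array that correlated least with its strain, the chk1dun1 difference was -0.87 (adjusted p 0.025), while with scaled arrays it was -0.19 (adjusted p 0.88). On the 1 slide that carried wild type and tel1mec1, with opposite dyes, the AAD6 difference was 0.12.

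In dun1 the AAD6 difference was -0.28 (interval -0.69 to 0.13), and without the array that went against its label it was -0.62 (adjusted p 0.15). Without that array and 2 others it was called, at -0.62 with an adjusted p of 0.041. On the 1 slide that carried dun1 and wild type, and that held the doubtful array, the AAD6 difference was 0.06. For sml1, chk1 and ste11 the AAD6 differences were 0.01, -0.01 and -0.02, with intervals that reached at most 0.43 on either side. On the 2 slides that carried wild type and sml1, the AAD6 difference was -0.11 and -0.41.

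AAD4 was called as different from wild type in no strain, and 3 of 12 differences had an unadjusted p under 0.05 by limma. Its highest difference was 0.50 in tel1mec1 (interval 0.12 to 0.88, adjusted p 0.074), followed by 0.39 in dun1rad53 (0.01 to 0.77, adjusted p 0.15). Its lowest was -0.39 in chk1dun1 (-0.77 to -0.01, adjusted p 0.46). In mec1 and rad53, where AAD6 was called, the AAD4 differences were 0.02 and 0.11. The AAD4 difference in tel1mec1 was called without wild-type replicate 2 (0.72, adjusted p 0.042) and without the wild-type array that correlated least with its strain (0.62, adjusted p 0.027). With arrays scaled to 1 spread, AAD4 was called higher than in wild type in tel1mec1 (1.04), dun1rad53 (0.91) and chk1rad53 (0.81).

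AAD10 in dun1rad53 stood 0.46 on the log2 scale below wild type (-0.46, SE 0.14, adjusted p 0.031), with replicates of -0.24 and -0.30 against 0.07 and 0.31. It was lost without either dun1rad53 replicate (adjusted p 0.11 and 0.17), without wild-type replicate 2 (-0.34, adjusted p 0.22) and with the slide as a random block (-0.44, adjusted p 0.071). In tel1mec1 the AAD10 difference was -0.42 (adjusted p 0.054), called without wild-type replicate 1 (-0.54, adjusted p 0.04), and in rad53 and chk1rad53 it was -0.27 and -0.26 (adjusted p 0.19 and 0.24).

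The AAD10 values hung on the wild-type array that read -0.42. Without it, the AAD10 differences were -0.70 in dun1rad53, -0.66 in tel1mec1, -0.51 in rad53 and -0.50 in chk1rad53, all called by limma with adjusted p from 0.0015 to 0.015. AAD14 followed, with -0.39 in tel1mec1, -0.37 in dun1rad53, -0.36 in dun1, -0.33 in rad53 and -0.29 in chk1rad53. With that array left out, 14 of 72 member differences were called in place of 5. Replicate 1 of wild type then rests on 1 array and 1 dye.

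AAD3 and AAD15 were called as different from wild type in none of the 12 strains. The AAD3 differences lay between -0.22 and 0.11 (lowest adjusted p 0.77), with 0 of 12 at an unadjusted p under 0.05 by limma. The AAD15 differences lay between 0.00 and 0.29, and 1 of 12, in tel1, had an unadjusted p under 0.05 (adjusted p 0.96). AAD14 differences lay between -0.27 and 0.16 (lowest adjusted p 0.13), with 3 of 12 at an unadjusted p under 0.05.

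**Figure D3:**
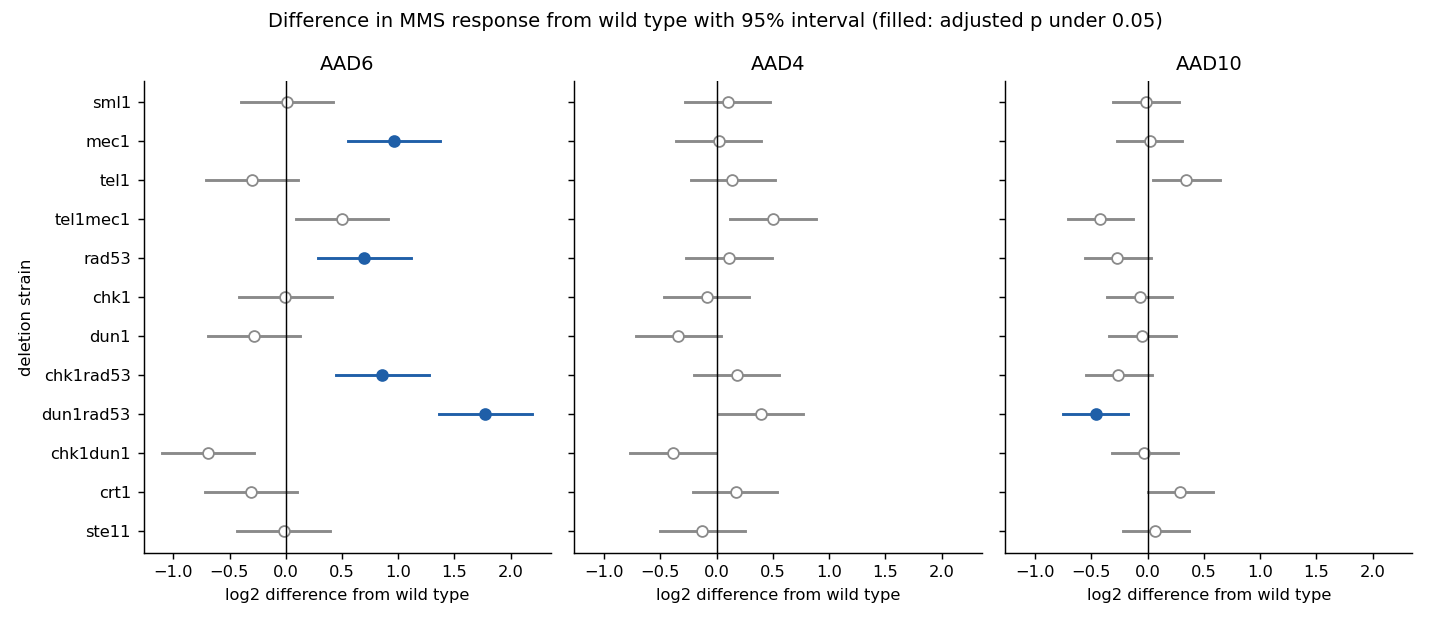
Difference in MMS response between each deletion strain and wild type (horizontal axis, log2) for AAD6, AAD4 and AAD10, with 95% intervals from the limma fit. Filled points mark an adjusted p under 0.05; AAD6 lies above wild type in mec1, rad53, chk1rad53 and dun1rad53, and AAD10 below it in dun1rad53.

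In direct contrasts between deletion strains, 0 of 30 member differences were called by limma, and 4 of 30 had an unadjusted p under 0.05. The largest was AAD6 in dun1rad53 minus rad53, at 1.08 (SE 0.20, interval 0.67 to 1.49), with an unadjusted p of 2.5e-05 and an adjusted p of 0.14. In that contrast 0.0% of all genes were called and 136 had an unadjusted p under 0.05. On the 1 slide that carried both strains, with MMS in Cy5, AAD6 read 3.16 in dun1rad53 and 2.25 in rad53. It was called with single arrays blocked by strain and replicate number (1.08, adjusted p 0.05), with arrays scaled to 1 spread (1.53, adjusted p 0.017), without 3 single arrays (1.08, adjusted p 0.0058) and without either chk1rad53 replicate (1.08, adjusted p 0.0089).

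In tel1mec1 minus mec1, where 2.38% of all genes were called, AAD6 was lower (-0.46, adjusted p 0.29), AAD4 higher (0.49, adjusted p 0.20) and AAD10 lower (-0.44, adjusted p 0.12), none of them called. On the 1 slide with both strains the values were -0.81, 0.50 and -0.27. In chk1dun1 minus dun1, with 0.0% of genes called and 181 at an unadjusted p under 0.05, AAD6 differed by -0.41 (interval -0.82 to 0.00). Without the dun1 array that went against its label, that difference was -0.07.

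In chk1rad53 minus rad53, with 0.0% of genes called and 322 at an unadjusted p under 0.05, AAD6 differed by 0.16 (interval -0.25 to 0.57). In mec1 minus rad53, where 8.74% of genes were called, AAD6 differed by 0.26 (interval -0.15 to 0.67, adjusted p 0.48). On the 2 slides that carried mec1 and rad53 the AAD6 difference was 0.01 and 0.31.

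In the factor set, AAD6 again had the highest member response in each strain. All 6 members were called higher in hap4 (29.3% of all genes) and in sut1 (24.7%), and 5 of 6 in hap1 (30.1%), rcs1 (29.6%) and yap7 (29.4%). The member without a call in those 3 strains was AAD10. Without its replicate 2, sut1 had 3 called members, since AAD10 (0.22, adjusted p 0.26, limma), AAD14 (0.08, 0.46) and AAD15 (0.14, 0.18) were lost. Without either of its replicates hap1 also had 3, AAD3 and AAD15 being lost. AAD6 ranged from 0.94 ± 0.03 in hap1 to 1.17 ± 0.01 in hap4, and AAD4 from 0.63 ± 0.22 to 0.90 ± 0.02 in the same strains. All 20 arrays read above 0 for each of these 2 genes, and neighbouring strains overlapped throughout both orders.

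AAD14 was called in all 5 factor-set strains, with means from 0.28 ± 0.29 in sut1 to 0.58 ± 0.06 in hap4, and so were AAD3 (0.20 to 0.50) and AAD15 (0.32 to 0.49). On arrays with MMS in Cy5 alone AAD14 kept 5 calls, while AAD3 and AAD15 had 0 each. With MMS in Cy3 alone AAD14 had 3 calls, and AAD3 and AAD15 had 5 each. Calls that held without either replicate of the strain numbered 4 for AAD14, 4 for AAD3 and 2 for AAD15. In sut1 the AAD14 replicates were far apart, at 0.08 and 0.48. AAD10 averaged -0.05 in hap1 and 0.30 in sut1. In hap4 its call rested on replicate 2, without which it stood at 0.03.

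No member was called as different between a factor-set strain and the mean of the other 4. Of 30 such differences 0 were called by limma, 3 had an unadjusted p under 0.05, and the lowest adjusted p was 0.23. The 3 were AAD3 (-0.25), AAD10 (-0.29) and AAD4 (-0.19), all in hap1. The share of all genes called was 1.61% in hap1, 2.38% in hap4, 0.268% in sut1, 0.268% in rcs1 and 0.0536% in yap7. In yap7, which lacks a gene of the Yap family, the AAD6 difference was -0.01 (interval -0.21 to 0.19). The factor set was measured on other arrays and from total RNA, so its values are not compared with wild type.

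The other aldo-keto reductases of yeast all rose in wild type, and several of them rose less in the strains without RAD53. All 7 measured genes of that list were called higher in wild type, beside 26.8% of all genes. Their median was 1.34 beside 0.00 for all genes. GCY1, a glycerol dehydrogenase, rose by 1.98 ± 0.07 and YDL124W, an alpha-keto amide reductase, by 1.70 ± 0.24, while ARA1 with 0.79 and YPL088W, a putative aryl-alcohol dehydrogenase outside the AAD names, with 0.34 ± 0.06 were among the lowest along with YPR1 at 0.77.

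In dun1rad53 minus wild type, where 16.1% of all genes were called, 4 of these 7 were lower and 0 higher. The lower ones were GCY1 (-1.27), GRE3 (-0.64), YJR096W (-0.63) and YPL088W (-0.52). In rad53 minus wild type, where 21.1% of all genes were called, the count was also 4 lower and 0 higher, with a median of -0.58. In mec1 minus wild type, where 1.56% of all genes were called, 1 of 7, GCY1, was lower (-0.83). These shares of all genes count both directions, and the share called lower alone is not given here. Over all genes, dun1rad53 arrays also spread less (SD 0.34 to 0.408) than wild-type arrays (0.524 to 0.649). Whether the lower values of this list go beyond that smaller spread was not tested. Whether this list differs from AAD6 as a group was not tested either.

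Of 12 other alcohol dehydrogenases, 7 were higher and 2 lower in wild type, where 26.8% of all genes were higher, with a median of 0.54. The highest were SOR1, a sorbitol dehydrogenase, with 0.91 ± 0.15 and BDH2, a relative of butanediol dehydrogenase, with 0.88 ± 0.33, and the lowest were ADH4 (-0.33) and ADH3 (-0.30). In dun1rad53, ADH6, an NADPH-dependent alcohol dehydrogenase of broad range, stood at 1.05 ± 0.01, and SFA1, which detoxifies formaldehyde, at 0.76 ± 0.01. Neither was called as different from wild type there, while BDH2 (-0.94) and SOR1 (-0.72) were lower.

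Of 7 genes that break down aromatic amino acids to aromatic alcohols, 4 were called higher and 0 lower in wild type (26.8% of all genes higher), with a median of 0.23. ARO8 and ARO9, aromatic aminotransferases, were the highest with 0.55 ± 0.03 and 0.51 ± 0.17. PDC5 (-0.22) and PDC1 (-0.12), pyruvate decarboxylases, were the lowest and were not called.

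All 21 genes of a list of Yap1 oxidative stress targets were called higher in wild type, beside 26.8% of all genes, with a median of 1.15. The glutathione transferases GTT2 and ECM4 carried 3.02 and 2.24 among them, with SRX1, a sulfiredoxin, at 2.41. The lowest were CCP1, a mitochondrial peroxidase (0.37), and TSA1, a peroxiredoxin (0.45). In dun1rad53 minus wild type, where 16.1% of all genes were called, 3 of 21 were higher and 1 was lower. The higher ones were SRX1 by 1.20, HBN1 by 0.54 and FRM2 by 0.51, and the lower one was ECM4 (-0.70). In rad53 minus wild type, where 21.1% of all genes were called, 2 were higher, SRX1 (0.90) and GSH1 (0.51), and 0 lower.

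Among 13 transcripts of regulators, 7 were higher and 4 lower in wild type, again beside 26.8% of all genes higher. CIN5, another factor of the Yap family, had the highest response with 1.16, followed by YAP1 itself with 1.04 ± 0.09, and the lowest were YAP7 (-0.50) and STB5 (-0.43). YAP1 was called higher in dun1rad53 as well, with 0.94 ± 0.05, and its difference from wild type, -0.10, was not called. CIN5 was lower than wild type in dun1rad53 (-0.85), chk1rad53 (-1.13) and rad53 (-0.84).

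**Figure D4:**
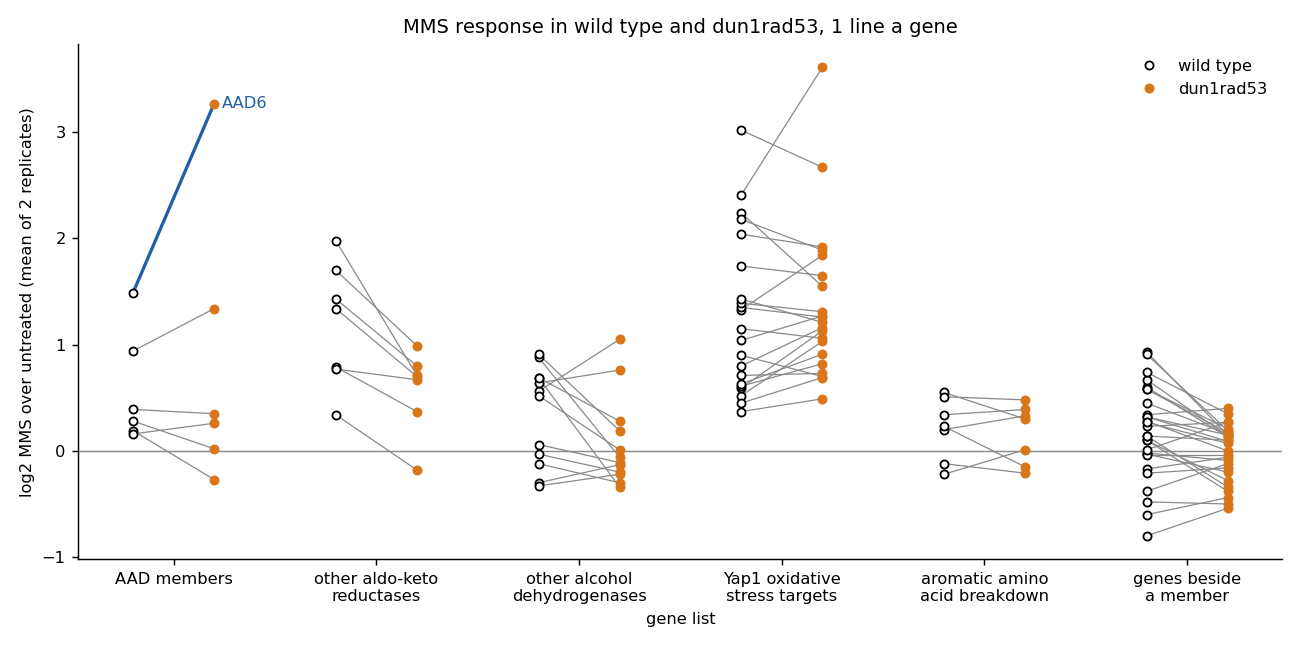
Response to MMS (vertical axis, log2 MMS over untreated, means of 2 replicates) in wild type (open circles) and dun1rad53 (filled circles) for the AAD members, 4 other gene lists and the genes beside a member; each line is 1 gene. AAD6 goes from 1.49 to 3.27, while the 7 other aldo-keto reductases go from a median of 1.34 to one of 0.70.

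None of the 28 measured genes within 3 places of a member was called higher in dun1rad53 than in wild type, and 6 were called lower. In that contrast 16.1% of all genes were called, counting both directions. AAD4, AAD6, AAD10 and AAD14 each lie next to a gene of the thiamine precursor pathway, THI13, THI5, THI11 and THI12. These 4 near-identical genes, whose probes may read each other's transcripts, rose alike in wild type, with 0.60, 0.58, 0.67 and 0.58. In dun1rad53 minus wild type THI11 (-0.53) and THI12 (-0.40) were called lower, and THI5, the direct neighbour of AAD6, stood at -0.37 (adjusted p 0.075, limma).

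AAD6 and AAD14 also sit beside copies of the vitamin B6 genes, SNZ3 with SNO3 and SNZ2 with SNO2. None of these 4 was called in wild type, where they lay between -0.04 and 0.14, and in dun1rad53 minus wild type SNZ3 and SNZ2 were lower by -0.48 and -0.49. DDI3 and DDI2, which belong to the same repeated blocks, encode cyanamide hydratases induced by DNA damage, and they had responses of 3.88 and 3.86 in wild type. In dun1rad53 they had 3.18 and 3.36. Whether probes of these copied genes also read each other's transcripts was not tested, so they may not be separate readings.

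Of these 28 genes, 13 were higher and 4 lower in wild type (26.8% of all genes higher), with a median of 0.19. The highest were SOR2 (0.93), near AAD4, and its relative SOR1 (0.91), near AAD10, whose probes may read each other's transcripts. The lowest were LRG1 (-0.80), near AAD4, and MDJ2 (-0.60), near AAD14. Related genes among the 28 were counted as separate genes. RDS1 beside AAD3 and AGP3 beside AAD6 rose modestly in wild type, with 0.34 and 0.32.

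The gene whose values lay nearest to those of AAD6 over the 26 kinase-set replicates was YLR460C, with a root mean square difference of 0.64 and a Pearson r of 0.71 over 13 strain means. It read 0.90 in wild type and 2.40 in dun1rad53. The distance was larger than for any other member, whose nearest genes lay at 0.29 for AAD4 (REH1, a ribosome assembly factor) and between 0.09 and 0.15 for the rest. These were ARR3, an arsenite exporter, for AAD3, VPS8, a vacuolar sorting protein, for AAD10, APS2, an adaptor subunit, for AAD14 and PRS2, a phosphoribosyl pyrophosphate synthase, for AAD15. Nearest to the mean of the 6 members was UBA4, an activating enzyme in transfer RNA thiolation, at 0.10, followed by AIM46, ADD66, TEX1 and MRL1 at 0.13 to 0.16.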

How the data were processed

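The 72 arrays are 2-colour Agilent arrays. The authors deposited normalized log ratios, 1 per probe and array, in 2 tables; limma is named without a version per the submitters' processing notes. The base and the centring are not given in the sources used here, and the deposited values were read as log2, limma's usual scale. Direction was taken as Cy5 over Cy3 from the labels' dyes, and the sign of MMS-in-Cy3 arrays was turned; opposite-dye arrays of a strain correlated negatively as deposited, with r from -0.876 to -0.174 and from -0.847 to -0.633 in the 2 sets. No value was missing and array medians lay between -0.0093 and 0.0211. The number of arrays limits the precision.

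Gene symbols came from the platform annotation. Of 6269 and 6256 probes, 649 and 647 had no symbol, 0 had several, and these stayed out of the tests; probes of a gene were averaged. The 2 arrays of a replicate number were averaged (n = 2 per strain). The model, in limma 3.58.1 under R 4.3.3, had a mean for each strain, with statmod 1.5.0 for random blocks, apart for each table, with 13 and 5 residual degrees of freedom. The script was tested on simulated data. Contrasts were each strain against 0, 12 strains minus wild type, 5 direct contrasts, and each factor-set strain minus the other 4. Intervals are 95% intervals of the fit.

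The members, lists, tests and 3 of the arrays left out were chosen with earlier results of these data known. The alternatives without 1 array of dun1 or of wild type, and the direct contrasts within slides, were chosen after seeing the data. Genes outside the family are named where they belong to a listed group (the highest and lowest by wild-type response, and those called in a contrast described), lie within 3 annotated genes of a member, are among the 5 nearest to the member mean or the nearest to a member, or are deleted in a strain. Naming list genes by their call in a contrast, and RDS1 and AGP3, was a choice made after their values were seen.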

Additional observations from a re-analysis of the deposited data

Results flagged for a closer look

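Within a strain, 1 array lay far from the other 3 in 6 of the 108 groups of 4 arrays examined, and chance alone gives about 1 in 20 such groups. AAD3 had its lowest array at -0.13 in wild type, at -0.03 in rad53 and at 0.05 in sut1. AAD14 had its lowest array at -0.06 in chk1. AAD4 had its highest array at 1.0 in dun1, on the array whose DUN1 value went against its label. AAD6 had its lowest array at 1.05 in chk1rad53, on the array whose values spread least over genes.

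The response to MMS differed between a deletion strain and wild type, by the limma contrast with an adjusted p under 0.05, in 5 cases. AAD6 differed by 0.96 in mec1, by 0.70 in rad53, by 0.86 in chk1rad53 and by 1.77 in dun1rad53. AAD10 differed by -0.46 in dun1rad53. Of these 5, the dun1rad53 difference of AAD6 was called under all 38 alternatives, and the other 4 were lost under 3 to 8 of them. Most of the 38 could hardly change a call, since they left out a replicate of a strain outside the contrast. The AAD6 calls in mec1 and rad53 were lost without any 1 replicate of the strains compared, and on each dye alone.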

How the results depend on the processing

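In the kinase set, 54 of 78 member responses were called, 33 with only MMS-in-Cy5 arrays, and 49 to 54 with a replicate left out. Differences from wild type numbered 5 of 72. They numbered 3 with the slide as a random block, 9 with arrays scaled to 1 spread, 3 with only MMS in Cy5, 1 with only MMS in Cy3, 8 without 3 single arrays and 14 without 1 wild-type array (replicate 1, MMS in Cy3; chosen after seeing the data). Leaving out a replicate gave 3 to 7, the 3 without wild-type replicate 2. Direct contrasts gave 0 of 30, and 1 with strain and number as a random block, with scaled arrays and without 3 single arrays. Leaving out a replicate gave 0 to 1, the 1 without either chk1rad53 replicate. In the factor set, 27 of 30 responses were called, 15 with only MMS in Cy5 and 24 to 28 with a replicate left out. Differences between its strains stayed at 0 of 30 under all alternatives run. Restricted to MMS in Cy3, AAD14 in crt1 turned to -0.04 (adjusted p 0.84, limma) and AAD3 in ste11 to -0.02 (adjusted p 0.92). Over all genes, the count of calls moved by over 1.5 times in 22 of 30 kinase-set contrasts with only MMS in Cy5, in 20 with only MMS in Cy3 and in 11 without the wild-type array. Using 1 dye leaves fewer arrays and an uncancelled dye effect; the cause of the other changes was not tested. Robust eBayes changed none of 240 member results.

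The replicate block left 239 of 240 member results on their side of the threshold, with 54 becoming 53 of 78 kinase-set responses (AAD3 in chk1rad53, adjusted p 0.054) and 5 of 72, 0 of 30, 27 of 30 and 0 of 30 in the other families. The numbers did not pair the samples: deviations of same-numbered replicates correlated over 0.1 in 18 of 78 strain pairs (-0.462 to 0.428) and in 2 of 10 (-0.403 to 0.149). No intensities were given, so signal over background could not be weighed.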
